A study of Mus musculus with 36 samples.

Results

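Small nucleolar RNAs (snoRNAs) were followed in mouse lung lavage macrophages on 36 Affymetrix Mouse Gene 1.0 ST arrays. The members were all array features annotated with exactly 1 gene symbol that starts with Snord or Snora, which gave 63 of the 28940 analysed features. They carried 56 symbols, 30 of them Snord (32 features) and 26 Snora (31 features). The 36 values of 4 features repeated those of another feature of the same symbol, so that 59 features held distinct values, and 13 further features that name a snoRNA together with another gene were left out by the rule. No member came from the imprinted snoRNA clusters. Values are the deposited log2 signals, whose array medians ran from 3.72 to 4.06. For 12 members no group mean exceeded 4.06, for 51 at least 1 did, and for 33 of these all 10 did.

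The arrays compared male C57Bl/6N Tac wild-type (WT) mice with Scnn1b-Tg littermates, in which a transgene for the epithelial sodium channel beta subunit is driven in airway club cells by the club cell secretory protein promoter. The Scnn1b feature averaged 8.68 (5.47 to 10.33, log2, n = 3) in newborn Scnn1b-Tg arrays against 5.34 (4.06 to 6.68) in newborn WT arrays, and 5.72 against 3.27 at PND 3, while the groups overlapped at PND 42 in SPF housing. Postnatal day (PND) 0, 3, 10 and 42 were covered under specific-pathogen-free (SPF) conditions. Germ-free (GF) animals were studied only when adult, at PND 42. There were 3 arrays in each genotype at PND 0 and in GF housing, and 4 arrays in each other group, 10 groups in all. Each array at PND 0, 3 and 10 held a pool of 3 pups and each array at PND 42 held 1 mouse, and 12 ng of RNA was amplified for every array. Lavage cells were depleted of Ly-6G-bearing granulocytes, and what remained was taken as macrophages.

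SnoRNAs are short nuclear RNAs that guide the maturation of other RNAs, above all ribosomal RNA in the nucleolus. C/D box snoRNAs (Snord) bind fibrillarin, Nop56, Nop58 and Snu13 and direct 2′-O-methylation, whereas H/ACA box snoRNAs (Snora) bind dyskerin, Nhp2, Nop10 and Gar1 and direct the conversion of uridine to pseudouridine. A few, such as U8 (Snord118), U14 (Snord14), U22 (Snord22) and U17 (Snora73), take part in the cutting of the ribosomal RNA precursor. Most mammalian snoRNAs are trimmed out of the introns of host genes, many of which encode ribosomal proteins or other parts of the translation machinery, so that a snoRNA and its host messenger RNA come from 1 primary transcript.

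In the RefSeq annotation, 55 of the 56 symbols lay within another gene, and these were 44 different hosts. The host was a protein-coding gene for 41 symbols, 20 of them in 16 ribosomal protein genes, and a long non-coding RNA gene for 14. Snord118 had no host. The strand of host and snoRNA was not compared, and the annotated snoRNA genes were 53 to 205 bases long. An array probe inside an intronic snoRNA also matches the unspliced host transcript, so that the mature snoRNA and its precursor cannot be told apart here. Close relatives such as Snora73a and Snora73b, or Snord15a and Snord15b, may also share probe signal, which was not tested.

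Host genes of this kind often start transcription within a run of pyrimidines. The 60 bases around the annotated start (30 before it and 30 from it on) are shown for 6 hosts of members that differed between PND 0 and the later ages, since host and snoRNA share this start. They were read from RefSeq, build GRCm38.p6, 5′ to 3′ on the strand of the host. Capitals mark a run of at least 5 bases that are each C or T and that holds the start base.

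Rpl4 (holds Snord16a, chr9:64173357-64173416, plus strand): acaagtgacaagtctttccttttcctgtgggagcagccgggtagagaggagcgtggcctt

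Rplp2 (holds Snora52, chr7:141447621-141447680, plus strand): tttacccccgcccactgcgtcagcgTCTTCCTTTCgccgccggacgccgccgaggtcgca

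Ipo7 (holds Snora23, chr7:110018285-110018344, plus strand): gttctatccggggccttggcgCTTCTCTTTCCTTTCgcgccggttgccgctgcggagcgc

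Snhg12 (holds Snora44, chr4:132308648-132308707, plus strand): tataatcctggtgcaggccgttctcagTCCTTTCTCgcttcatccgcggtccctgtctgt

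Rps3 (holds Snord15b, chr7:99483680-99483739, minus strand): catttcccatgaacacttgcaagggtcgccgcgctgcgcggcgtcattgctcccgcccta

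Gm36220 (holds Snord104, chr11:106500885-106500944, plus strand): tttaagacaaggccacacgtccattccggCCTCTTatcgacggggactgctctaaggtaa

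Such a run was present at the start of 10 of the 34 hosts with an entry (29.4%) and of 10.1% of all 32851 RefSeq promoters. This is a description of the letters at the annotated starts.

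As a class, the snoRNAs at PND 0 lay within the range of the later arrays, measured against their own means. For each array, every feature was set against its mean over the 36 arrays, and the median of the 63 members was taken. This median was -0.09, 0.03 and 0.08 on the log2 scale in the 3 newborn WT arrays, and -0.31, -0.09 and -0.04 in the 3 newborn Scnn1b-Tg arrays. The 30 later arrays ran from -0.32 to 0.34, so that every newborn array lay within the range of the later ones. WT arrays at PND 10 averaged the highest, with 0.176 ± 0.192 (SD, n = 4), and Scnn1b-Tg arrays at PND 42 in SPF housing the lowest, with -0.20 ± 0.077 (SD, n = 4).

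The newborn arrays stood apart in the scatter among members. The interquartile range of the 63 centred values was 0.552 to 1.14 in the newborn arrays and 0.290 to 0.648 in the later arrays. WT replicate 1 at PND 0 had the widest range, 1.14, and WT replicate 2 the narrowest newborn one, 0.552, which lay inside the later range. All features scattered more at PND 0 as well. The interquartile range of log2 differences from each feature's median over arrays is a usual measure of array quality. It was 0.361 to 0.486 at PND 0 and 0.221 to 0.297 later, with no overlap. Both interquartile ranges refer each feature to its centre over all arrays, most of them later ones. Differences with age therefore also widen both ranges at PND 0. The spread between replicate arrays, relative to the pooled spread of the model, was 1.48 in WT and 1.39 in Scnn1b-Tg at PND 0 and 0.757 to 0.944 in the other groups. The RNA input was the same in every group, no measure of RNA integrity was used here, and the part of RNA quality in these differences was not tested.

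**Figure D1:**
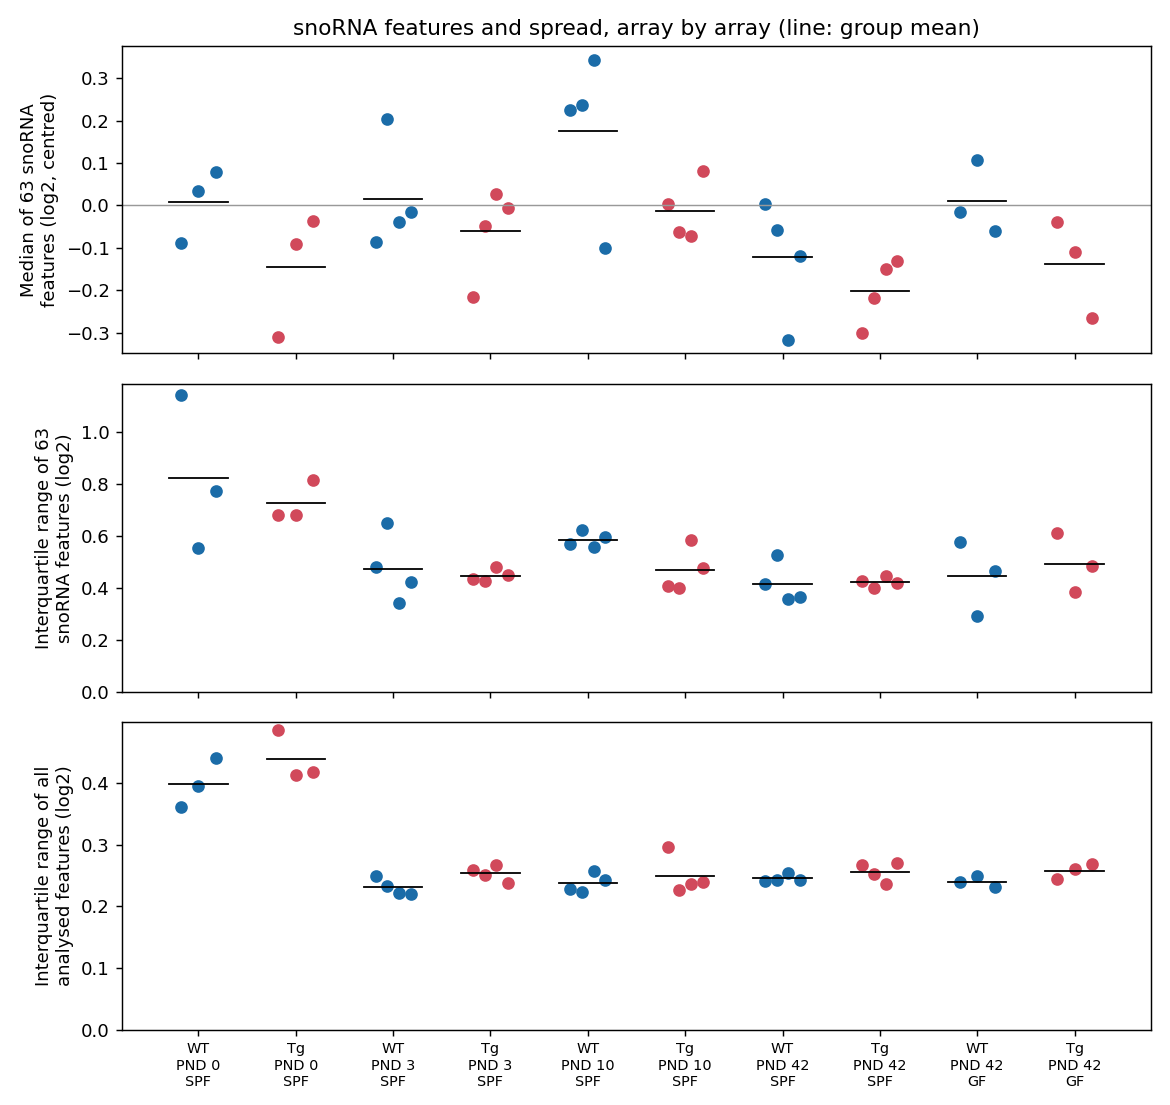
Each point is 1 of the 36 arrays, grouped by age, genotype (blue WT, red Scnn1b-Tg) and housing, with a line at the group mean. The median of the 63 snoRNA features in newborn arrays (top, -0.31 to 0.08, log2) lay within the later range, the interquartile range of the snoRNA features (middle, log2) reached 1.14, and that of all 28940 features (bottom, log2, against each feature's median) was wider in every newborn array than in any later one.

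The scatter at PND 0 went both ways. In the newborn WT arrays, 16, 10 and 9 of the 63 members exceeded every one of the 24 later SPF arrays of both genotypes, and 10, 9 and 4 lay below all of them. In the newborn Scnn1b-Tg arrays 5, 7 and 8 members lay above and 19, 10 and 3 below. Over all features, 13.5% to 17.2% of values lay above and 12% to 20% below in the same arrays. The member shares bracketed these figures, from 7.94% to 25.4% above and from 4.76% to 30.2% below. Scnn1b-Tg replicate 1, with 19 members below, was also the array with the widest scatter over all features, 0.486.

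**Figure D2:**
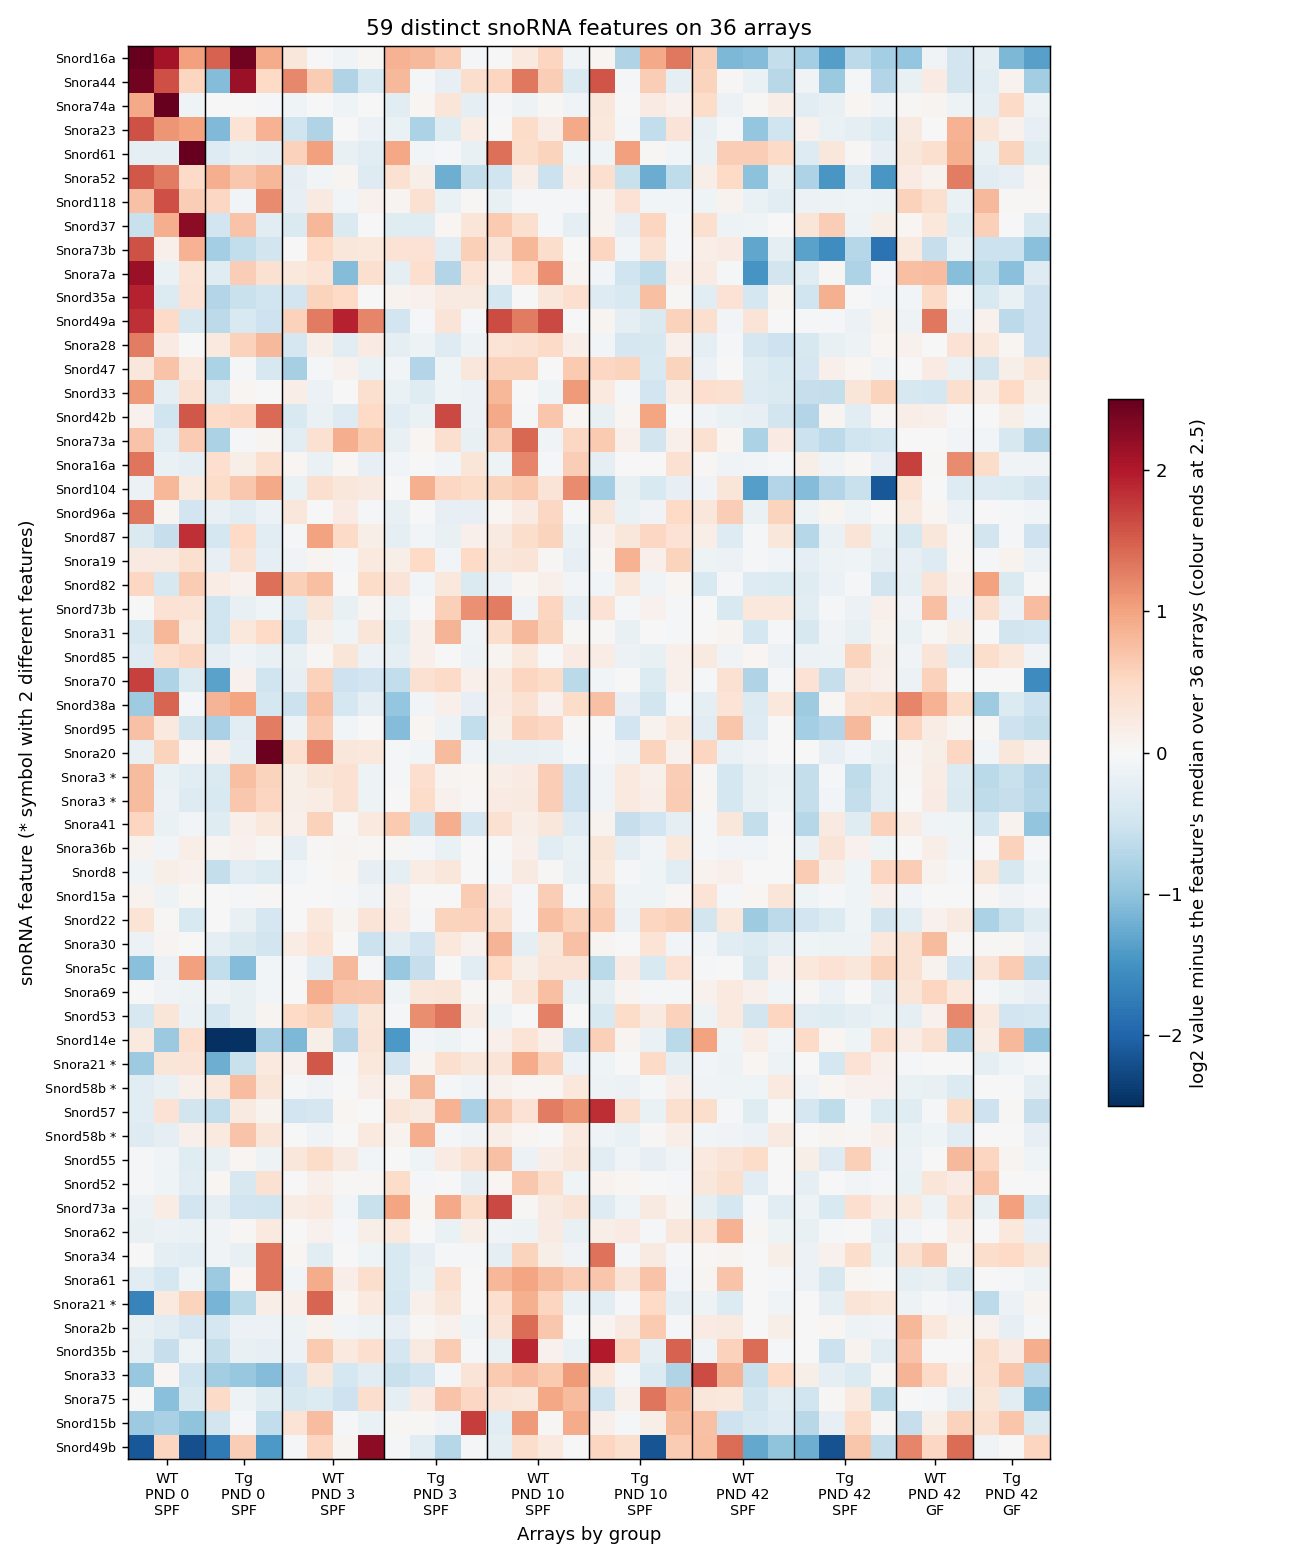
Rows are the 59 distinct snoRNA features, ordered by their mean in newborn WT arrays, and columns are the 36 arrays by group, with colour for the log2 value minus the feature's median over arrays (red higher, blue lower, colour ends at 2.5). Strong colours are scattered over rows in the newborn columns, with single-array readings such as Snora74a in WT replicate 2 (6.72) and Snord61 in WT replicate 3 (7.94).

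Each member was then tested for the difference between PND 0 and the mean of PND 3, 10 and 42 in SPF mice (limma, Benjamini-Hochberg adjusted over all 28940 features). A feature is said to rise or fall where its adjusted p was under 0.05 and the change at least 2-fold. In WT mice 7 of 63 members were higher at PND 0 (11.1%, against 5.44% of all features) and 1 was lower (1.59%, against 4.68%). The 7 features stand for 6 symbols, Snord16a, Snora74a, Snora23, Snora44, Snora52 and Snord118, since both Snord118 features hold the same values, and the lower one was Snord15b. In Scnn1b-Tg mice 3 members were higher (4.76%, against 6.78%), which were Snord16a, Snora52 and Snord104, and Snord14e was lower (1.59%, against 5.43%). The median change of the 63 members was 0.04 in WT and -0.10 in Scnn1b-Tg, beside -0.01 and -0.05 over all features. By adjusted p alone 14 members (22.2%) in WT and 11 (17.5%) in Scnn1b-Tg passed, beside 31.5% and 35.7% of all features. The array medians themselves were higher at PND 0 by 0.23 in WT and 0.25 in Scnn1b-Tg. When each array was centred on its median, the median change of the members was -0.19 in WT and -0.35 in Scnn1b-Tg, beside -0.24 and -0.30 over all features. On that scale 4 members were higher and 3 lower in WT, and 2 were higher and 2 lower in Scnn1b-Tg. With weights for the wider spread at PND 0, 5 members were higher and 0 lower in WT, where Snora44, Snora52 and Snord15b no longer passed. In Scnn1b-Tg 2 were higher and 1 lower, and Snord104 no longer passed. The shares of all features under centring and under weights are not given here, so that these counts have no background beside them.

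Without any test, the newborn WT arrays all lay above every later WT array in SPF housing for 4 members (6.35%, against 8.03% of all features) and below for 3 (4.76%, against 9.12%). These were Snord118 (2 features), Snord16a and Snora23 above, and Snord15b, Snora61 and Snora2b below. In Scnn1b-Tg, Snora52 and Snora28 lay above (3.17%, against 9.39%) and Snora33 below (1.59%, against 10.4%).

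**Figure D3:**
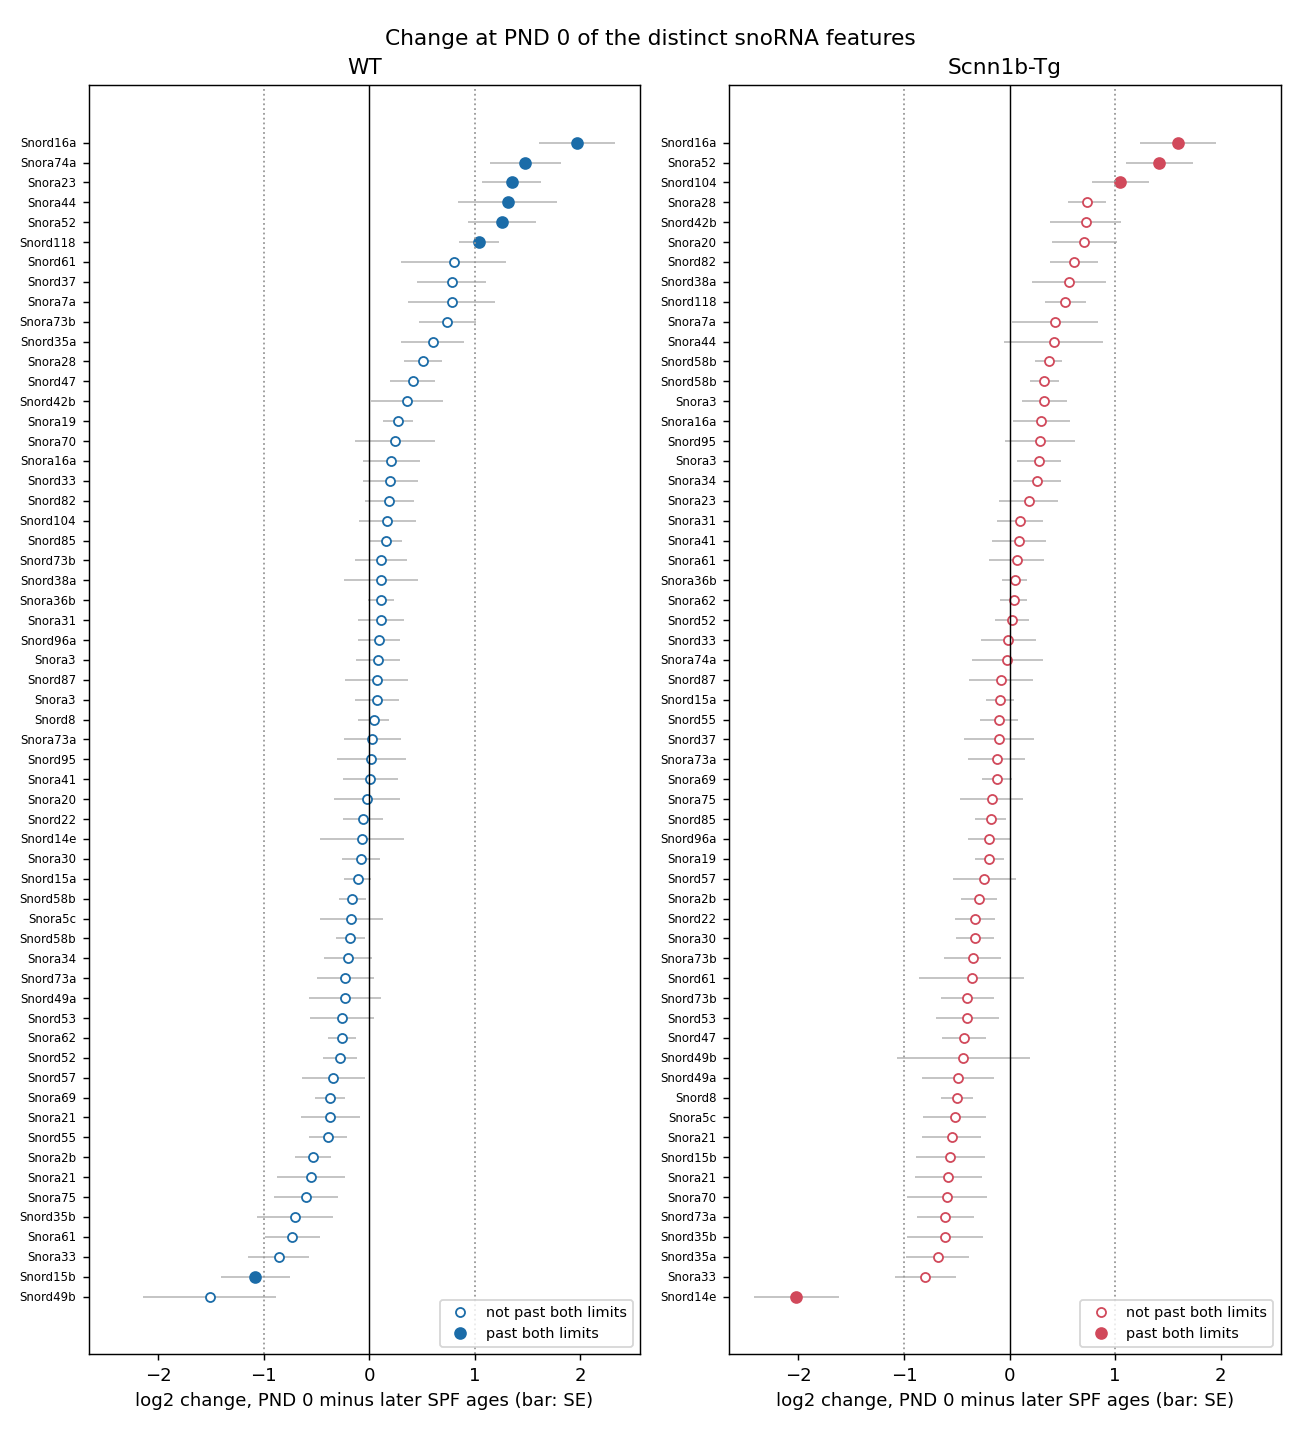
Points give the log2 change of each distinct snoRNA feature at PND 0 against the mean of the later SPF ages, with bars for the standard error, in WT (left) and Scnn1b-Tg (right). Filled points passed an adjusted p of 0.05 and the 2-fold limit (dotted lines), and most members lay between these lines, with Snord16a at the top in both genotypes and Snord14e at -2.02 in Scnn1b-Tg alone past the lower limit.

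Snord16a, a C/D box snoRNA in an intron of the ribosomal protein gene Rpl4, had the largest rise in both genotypes. Its log2 values in newborn WT arrays were 7.64, 7.22 and 6.16, and the 12 later WT arrays ran from 4.02 to 5.73 with a median of 5.14. All 3 newborn WT arrays were thus above every later one. In newborn Scnn1b-Tg arrays it read 6.62, 7.55 and 6.07. At PND 10, however, 2 of the 4 Scnn1b-Tg arrays read 6.08 and 6.45, so that the groups overlapped. The change was 1.97 ± 0.36 (SE, adjusted p = 5.51e-05) in WT and 1.60 ± 0.36 (adjusted p = 0.000571) in Scnn1b-Tg, about 3.93-fold and 3.04-fold. Both passed whichever array was left out. From PND 0 to PND 3 the change in WT was -1.81 ± 0.43 (adjusted p = 0.00148), and from PND 10 to PND 42 that in Scnn1b-Tg was -1.32 ± 0.39 (adjusted p = 0.0497), which was lost without any of 7 of the 8 arrays concerned and ranged from -1.70 to -1.01. When PND 3 alone was the later age, the change in Scnn1b-Tg was 1.04 (adjusted p = 0.0644).

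Snora52, an H/ACA box snoRNA in the ribosomal stalk protein gene Rplp2, was the other member that rose in both genotypes. It read 9.08, 8.83 and 8.0 in newborn WT arrays, and 6.5 to 8.02 in the later ones (median 7.41). WT replicate 3 fell just inside the later range. Newborn Scnn1b-Tg arrays gave 8.44, 8.20 and 8.36, all above the later Scnn1b-Tg arrays, which ran from 6.07 to 7.93. The changes were 1.26 ± 0.32 (adjusted p = 0.0028) and 1.42 ± 0.32 (adjusted p = 0.000718), and neither was lost when an array was left out. A high value was not limited to newborns, since a GF WT array at PND 42 read 8.80.

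Snora23, an H/ACA box snoRNA in the importin gene Ipo7, was high in newborn WT arrays, with 8.51, 8.03 and 7.93 against 5.96 to 7.87 in the later ones. All 3 exceeded the later range, replicate 3 only narrowly. Newborn Scnn1b-Tg arrays read 5.82, 7.26 and 7.80, the first of them below every later Scnn1b-Tg array. The change was 1.35 ± 0.28 (adjusted p = 0.000262) in WT and 0.18 (adjusted p = 0.672) in Scnn1b-Tg. The difference between these changes was -1.17 ± 0.40 with an adjusted p of 0.0826. From PND 0 to PND 3, Snora23 fell in WT by 1.58 on the log2 scale (adjusted p = 0.000409).

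Snord118 (U8), which acts in the processing of the large-subunit ribosomal RNAs and is made from its own gene, was dim on these arrays. It read 3.57, 4.45 and 3.44 in newborn WT arrays and 2.57 to 3.06 in the later ones. The newborn WT values did not overlap the later ones, yet most were near or below the array medians, which ran from 3.72 to 4.06. Newborn Scnn1b-Tg arrays read 3.34, 2.77 and 4.01. The change in WT was 1.04 ± 0.19 (adjusted p = 7.05e-05), and it was 0.73, under 2-fold, without WT replicate 2. It was also under 2-fold after median centring (0.81). In Scnn1b-Tg the change of 0.53 passed the adjusted p (0.0305) but not the 2-fold limit.

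Snora74a (U19), which lies in the long non-coding gene Snhg4, rested on a single array. It read 4.06, 6.72 and 3.01 in newborn WT arrays, and 2.96 to 3.58 in the later ones. Replicate 3 was inside the later range. The change of 1.48 ± 0.34 (adjusted p = 0.000972) was 0.42 (adjusted p = 0.0825) without replicate 2, and 2.27 without replicate 3. Snora44, in the long non-coding gene Snhg12, read 7.38, 6.59 and 5.51 in newborn WT arrays and 4.22 to 6.29 later. Its change of 1.31 ± 0.47 (adjusted p = 0.0319) was 0.87 (adjusted p = 0.263) without replicate 1, and its adjusted p was 0.104 without replicate 2. In newborn Scnn1b-Tg arrays Snora44 read 3.89, 7.12 and 5.47, a wider range than in any later group.

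Snord15b, a C/D box snoRNA in the ribosomal protein gene Rps3, was the member that fell in WT. It read 3.22, 3.30 and 3.12 in newborn WT arrays and 3.60 to 5.19 in the later ones, with no overlap. The change was -1.08 ± 0.33 (adjusted p = 0.0112). Without WT replicate 3 at PND 0 the adjusted p was 0.0553, and without WT replicate 1 at PND 42 the change was -0.99. Newborn Scnn1b-Tg arrays read 3.66, 4.08 and 3.51, with a change of -0.56 (adjusted p = 0.211). The related Snord15a, in the same host, gave a change of -0.11 in WT and -0.09 in Scnn1b-Tg. Snord15a was dim, however, with 2.60 to 2.80 in newborn and 2.64 to 3.33 in later WT arrays, and 2.69 to 2.75 and 2.61 to 3.35 in Scnn1b-Tg. These values, and the newborn WT values of Snord15b, lay below the array medians of 3.72 to 4.06.

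Snord104, in the long non-coding gene Gm36220, rose at PND 0 in Scnn1b-Tg, with 8.12, 8.34 and 8.62 against 5.55 to 8.56 later. The change of 1.05 ± 0.27 (adjusted p = 0.00261) was at or under the 2-fold limit when any of 4 arrays was left out (0.92 to 1.00), and against PND 3 alone it was 0.22 (adjusted p = 0.686). The WT change was 0.17. In WT, Snord104 fell from PND 10 to PND 42 by 1.15 on the log2 scale (adjusted p = 0.0305). This call was lost without any of 5 of the 8 arrays, and was -0.85 (adjusted p = 0.202) without WT replicate 3 at PND 42.

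**Figure D4:**
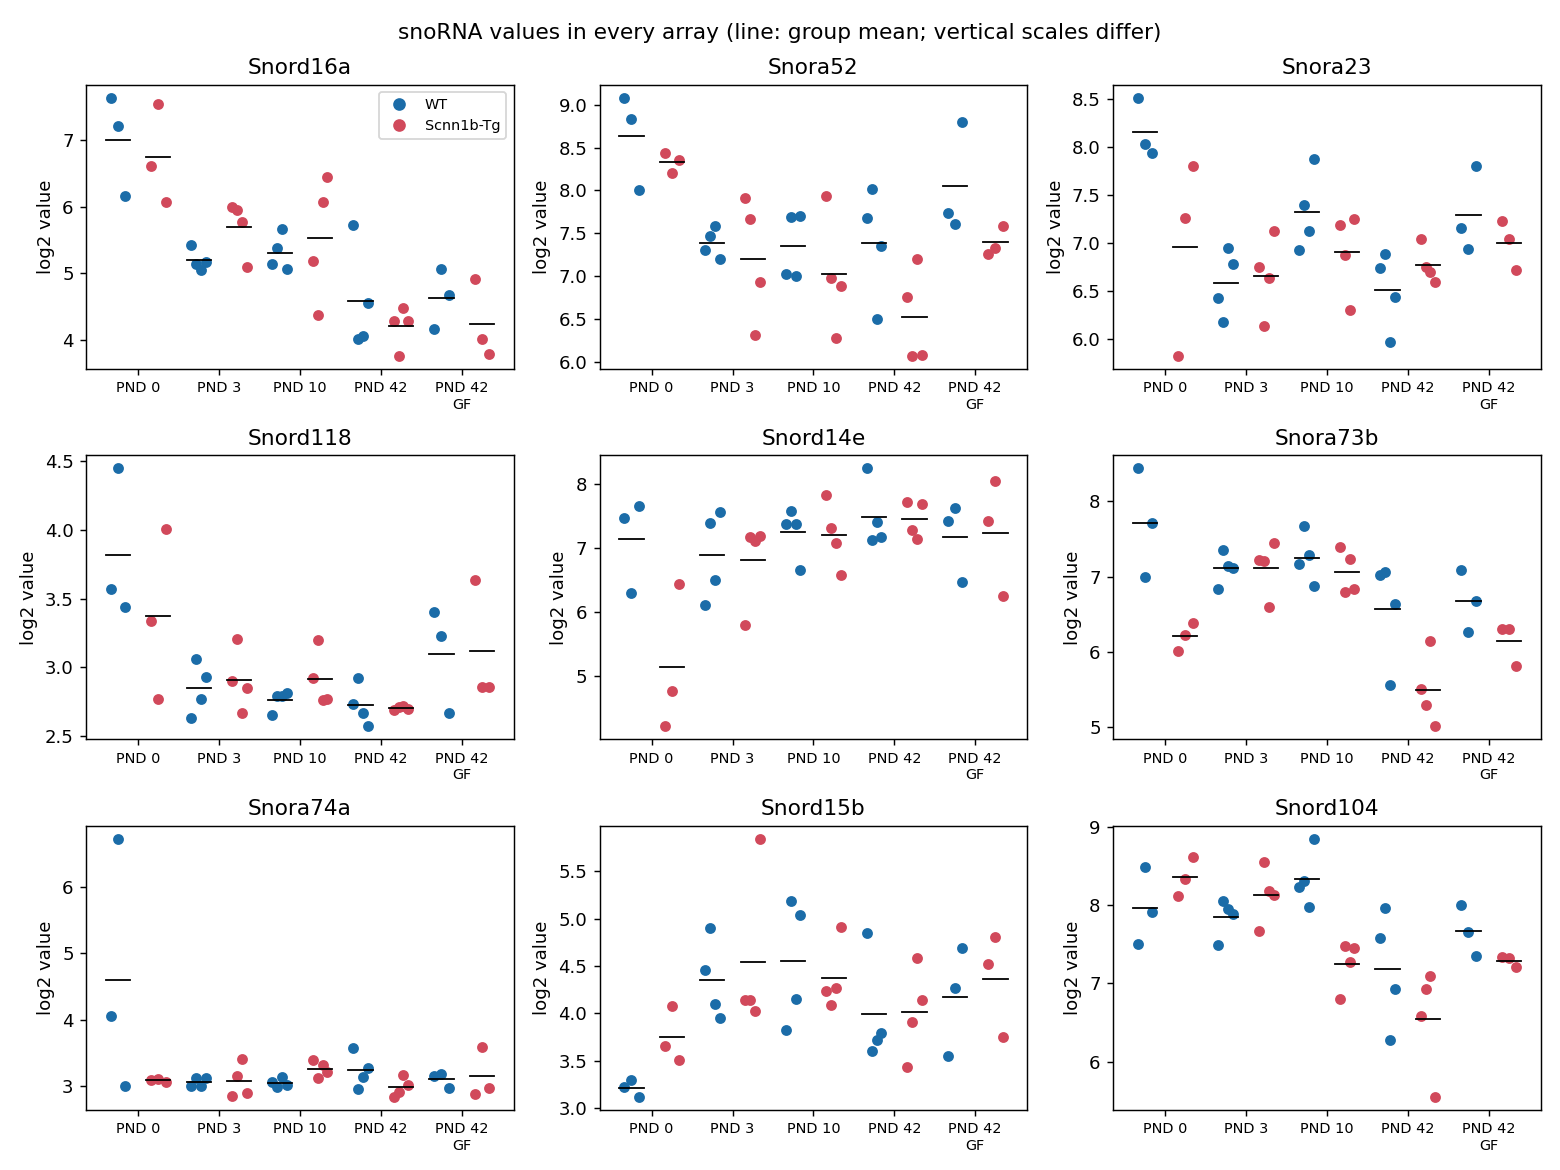
Log2 values of 9 snoRNAs in every array, by age and housing, with blue points for WT, red points for Scnn1b-Tg and a line at the group mean (vertical scales differ between panels). Snord16a and Snora52 were high in both newborn groups, Snora23 in newborn WT, Snora74a in 1 newborn WT array (6.72), and Snord14e was low in 2 newborn Scnn1b-Tg arrays (4.21 and 4.77).

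Snord14e (U14), a C/D box snoRNA in the heat shock gene Hspa8 that is needed for cutting the small-subunit ribosomal RNA precursor, was the only member whose age change differed between the genotypes past both limits (1 of 63, 1.59%, against 1.08% of all features lower and 1.24% higher). It read 4.21, 4.77 and 6.43 in newborn Scnn1b-Tg arrays and 5.79 to 7.83 in the later Scnn1b-Tg arrays. Replicates 1 and 2 lay below the later range and replicate 3 within it. Newborn WT arrays read 7.47, 6.30 and 7.65, inside the later WT range of 6.11 to 8.24. The change was -2.02 ± 0.40 (adjusted p = 0.000151) in Scnn1b-Tg and -0.07 (adjusted p = 0.937) in WT, and the difference was -1.95 ± 0.57 (adjusted p = 0.04). The change in Scnn1b-Tg passed whichever array was left out, and ranged from -2.66 to -1.55. The difference between genotypes lost its call in 14 of 30 such fits, and was -1.49 (adjusted p = 0.206) without Scnn1b-Tg replicate 1 at PND 0. Hspa8 carries several closely related U14 copies, and how far their probes share signal was not tested.

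The comparison of Scnn1b-Tg with WT at PND 0 uses the same newborn arrays as the age comparisons, so that its values are not separate evidence. Here 4 of 63 members were lower in Scnn1b-Tg (6.35%, against 0.283% of all features) and 0 were higher (against 1.2%). The median difference over the members was -0.26, beside -0.02 over all features. It was -0.08 without WT replicate 1 and -0.15 without WT replicate 2. In this contrast 5 members passed the adjusted p alone (7.94%, against 4.33%). Snora73b (U17), an H/ACA box snoRNA in the host Snhg3 that acts in ribosomal RNA cutting, read 8.44, 6.99 and 7.72 in WT and 6.01, 6.23 and 6.39 in Scnn1b-Tg. These groups did not overlap. Without WT replicate 1 the difference of -1.51 ± 0.34 (adjusted p = 0.00759) was -1.15 (adjusted p = 0.0723), and its near relative Snora73a differed by -0.62 (adjusted p = 0.372). Snord14e differed by -2.0 ± 0.51 (adjusted p = 0.0201), and lost this call without any of 4 of the 6 arrays. Snora74a (-1.50 ± 0.43, adjusted p = 0.0432) and Snora23 (-1.20 ± 0.35, adjusted p = 0.0481) were the other members. Snora74a lost its call without any of 4 of the 6 arrays and came to -0.44 (adjusted p = 0.284) without WT replicate 2. Snora23 lost its call without any of 3 and came to -0.63 (adjusted p = 0.434) without Scnn1b-Tg replicate 1. When the 6 arrays were fitted alone, 0 of the 4 passed, with adjusted p of 0.851 to 0.872, and 0 passed with weights for the group variance (0.187 to 0.538).

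Marker genes of other cells moved with age and genotype at PND 0. Of 7 epithelial marker genes on the array, 6 were higher at PND 0 in each genotype, and the mean log2 level of the 7 was 9.27 to 9.99 in newborn arrays and 5.26 to 6.34 in the later ones. Of 6 fibroblast genes, 5 were higher in WT and 6 in Scnn1b-Tg, and all 6 were higher in newborn Scnn1b-Tg than in newborn WT. Of 7 skeletal muscle genes, 1 was higher at PND 0 in WT and all 7 in Scnn1b-Tg, where their mean level was 6.56 to 8.06 against 3.52 to 4.03 in newborn WT. Of 3 erythroid genes on the array, 0 were higher in WT and 3 in Scnn1b-Tg, and their mean level ran from 4.40 to 4.93 over the newborn WT arrays and from 4.40 to 9.58 over the newborn Scnn1b-Tg arrays. Of 8 neutrophil genes, 3 were higher in WT and 2 in Scnn1b-Tg. Of 8 alveolar macrophage genes, Siglecf, Itgax and Chil3 were lower at PND 0 in both genotypes, Marco was lower in Scnn1b-Tg, and Fabp4 was higher in WT. The part of these cells in the snoRNA values was not tested, and in such samples fewer cells of a type and less RNA per cell cannot be told apart.

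Few members passed both limits over the later steps. In WT, 4 members fell between birth and PND 3 (6.35%, against 5.2% of all features), namely Snord16a, Snora23, Snora74a and Snora52, and Snord15b rose (1.59%, against 4.73%). On adjusted p alone 9 passed (14.3%, against 26.0%). In Scnn1b-Tg over the same step Snord14e (1.68 ± 0.48, adjusted p = 0.00701) and Snord73a (1.02 ± 0.32, adjusted p = 0.0135) rose (3.17%, against 5.29%), and Snora52 fell (-1.13 ± 0.38, adjusted p = 0.024; 1.59%, against 6.69%), and 6 passed by adjusted p alone (9.52%, against 30.0%). Snord73a, a C/D box snoRNA in the ribosomal protein gene Rps3a1, read 3.32, 3.07 and 3.05 at PND 0 and 4.54, 3.60, 4.51 and 4.01 at PND 3, which did not overlap. Its change was under 2-fold, between 0.89 and 0.98, without any of 4 of the 7 arrays. The change of Snord14e was 1.21 (adjusted p = 0.0921) without Scnn1b-Tg replicate 1 at PND 0. Snora52 lost its call without any of 2 of the 7 arrays in WT and 4 of the 7 in Scnn1b-Tg, Snord15b without any of 5 of the 7 in WT, and Snora74a without WT replicate 2 at PND 0 (-0.47, adjusted p = 0.0934), while Snord16a and Snora23 lost theirs in no case. From PND 3 to PND 10, 0 members passed both limits in either genotype, although 12 in WT (19.0%, against 5.86% of all features) and 4 in Scnn1b-Tg (6.35%, against 9.43%) had an unadjusted p under 0.05 and 45 of 63 changes in WT were positive. Over all features, 0.0276% rose and 0.0726% fell past both limits in WT, and 0.121% and 0.584% in Scnn1b-Tg. By adjusted p alone, where again 0 members passed, these shares were 0.131% and 1.45%.

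From PND 10 to PND 42, 9 of the 63 changes in WT were positive, with a median of -0.28 beside 0.01 over all features, and Snord104 was the 1 member past both limits (1.59%, against 0.453% lower and 0.408% higher). Snord22 passed as well by adjusted p alone (3.17%, against 2.5%). In Scnn1b-Tg, Snora73b and Snord16a fell (3.17%, against 0.498%) and 0 members rose (against 0.833%), and 5 passed by adjusted p alone (7.94%, against 4.61%). Snora73b read 7.39, 6.79, 7.23 and 6.83 at PND 10, and 5.51, 5.30, 6.15 and 5.01 at PND 42. All PND 42 arrays were lower, with a change of -1.57 ± 0.29 (adjusted p = 0.000932) that was kept whichever array was left out. In WT the same gene read 7.02, 7.06, 5.56 and 6.64 at PND 42.

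Between genotypes after PND 0, 2 members passed. Snord49a, a C/D box snoRNA in the non-coding gene 2410006H16Rik, was lower in Scnn1b-Tg at PND 3 (1.59% of members, against 0.256% lower and 1.14% higher), with 3.50, 3.94, 4.29 and 3.94 against 4.54, 5.27, 5.90 and 5.19 in WT. The groups did not overlap. The difference of -1.31 ± 0.37 (adjusted p = 0.0411) lost its call without any of 6 of the 8 arrays, and its neighbour in the same host, Snord49b, was not called (-0.97, adjusted p = 0.643). Snora73b was lower in Scnn1b-Tg at PND 42 in SPF housing (1.59%, against 0.366% lower and 1.26% higher), by 1.08 on the log2 scale (adjusted p = 0.026), a call that was also lost without any of 6 of the 8 arrays. The WT array of 5.56 lay inside the Scnn1b-Tg range. At PND 10 and in GF mice 0 members were called between genotypes, beside 0.0726% and 0.397% of all features lower and 0.563% and 1.85% higher. In each, 6 members had an unadjusted p under 0.05 (9.52%), against 11.1% of all features at PND 10 and 14.3% in GF mice. By adjusted p alone, 1 member passed at PND 3 (against 4.05%), 1 at PND 42 in SPF housing (against 4.49%), and 0 at PND 10 (against 1.57%) and in GF mice (against 4.91%). For housing, 0 members were called in WT (against 0.00346% of all features higher and 0.0484% lower), with 5 at an unadjusted p under 0.05 (7.94%, against 4.51%), and 0 in Scnn1b-Tg (against 0.0518% and 0.0484%), with 4 (6.35%, against 7.77%). By adjusted p alone 0 members passed in either (against 0.0657% and 0.142%), and 0 differed in their housing change between genotypes (against 0.00346% higher and 0.0% lower, with 4 at an unadjusted p under 0.05, 6.35% against 3.14%).

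The other members that earlier results had named gave no call in any contrast. Snord22, Snora69, Snora16a, Snora34 and Snord35b are listed by the study among age changes in whole lung, a sample type not on these arrays. Snord22 (U22), in the host Snhg1, gave a change of -0.06 in WT and -0.33 in Scnn1b-Tg at PND 0, and of -0.86 (adjusted p = 0.02) in WT and -0.76 (adjusted p = 0.0308) in Scnn1b-Tg from PND 10 to PND 42, under the 2-fold limit in both. Snora69, in Rpl39, gave a change of -0.37 (adjusted p = 0.0436) in newborn WT. Snora16a, in Snhg12, gave a change of 0.21 and 0.30 at PND 0, Snora34, in Kansl2, of -0.20 and 0.26, and Snord35b of -0.70 and -0.61, and none of these passed the adjusted p. Snora16a, Snora69 and Snord35b were dim, with newborn WT means of 3.17, 3.21 and 3.07 and later WT medians of 2.82, 3.46 and 3.55. These lay below the array medians of 3.72 to 4.06, and whether a change could be seen at such levels was not tested. Snord49b had the lowest change of all members in WT, -1.51 ± 0.63 (adjusted p = 0.0666), with newborn WT values of 3.44, 6.09 and 3.35.

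Both C/D box and H/ACA box members gave calls, and the difference between them was not tested. Of 32 Snord features, 3 were higher and 1 lower at PND 0 in WT, with a median change of 0.06. Of 31 Snora features, 4 were higher and 0 lower, with a median of 0.03. Over all features, 5.44% were higher and 4.68% lower. In Scnn1b-Tg, 2 Snord features were higher and 1 lower, and 1 Snora feature was higher and 0 lower (against 6.78% and 5.43%). The medians there were -0.14 and -0.02. Between genotypes at PND 0, 1 of 32 Snord and 3 of 31 Snora features were lower in Scnn1b-Tg (against 0.283%) and 0 higher (against 1.2%). The 6 features of snoRNAs for precursor cutting (Snord118, Snord14e, Snord22, Snora73a and Snora73b) had medians of 0.38 in WT and -0.23 in Scnn1b-Tg. Both Snord118 features, which hold the same values, entered these medians. With 1 Snord118 feature for the 5 symbols, the middle change was 0.03 (Snora73a) in WT and -0.33 (Snord22) in Scnn1b-Tg. In WT, Snord118 changed by 1.04 and Snora73b by 0.74, while Snora73a, Snord22 and Snord14e changed by 0.03, -0.06 and -0.07. Members in ribosomal protein hosts had medians of -0.11 and -0.09, those in other protein-coding hosts 0.01 and -0.18, and those in long non-coding hosts 0.06 and -0.10.

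For 10 hosts, more than 1 symbol was measured. In Snhg12, Snora44 rose at PND 0 in WT by 1.31, Snora61 gave a change of -0.73 (adjusted p = 0.027) and Snora16a of 0.21. In Scnn1b-Tg their changes were 0.42, 0.07 and 0.30. In Rpl13a, Snord33 gave a change of 0.20 and Snord35a of 0.60 in WT, and of -0.01 and -0.68 in Scnn1b-Tg. In 2410006H16Rik the changes were -0.23 for Snord49a and -1.51 for Snord49b in WT, and -0.49 and -0.44 in Scnn1b-Tg. In Ncl they were -0.60 for Snora75 and 0.19 for Snord82 in WT, and -0.17 and 0.61 in Scnn1b-Tg. In Rack1 they were 0.02 for Snord95 and 0.09 for Snord96a in WT, and 0.29 and -0.19 in Scnn1b-Tg. In Rps3a1 they were -0.23 for Snord73a and 0.11 for Snord73b in WT, and -0.61 and -0.40 in Scnn1b-Tg. Differences between snoRNAs of a host were not tested.

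No host gene passed both limits in the feature used for it. For 34 symbols the host, 29 genes in all, had at least 1 feature under its own symbol. Where a host symbol had several features (17 for Rpl17, 13 for Rpl23a and 12 for Rps12), the brightest was taken. Whether that feature lies at the gene that holds the snoRNA was not checked. At PND 0, 0 of 29 hosts passed both limits in WT, where their changes ran from -0.41 to 0.68 and 6 were higher and 1 lower by adjusted p alone, and 0 of 29 in Scnn1b-Tg, where they ran from -0.75 to 0.62 and 7 were higher and 3 lower by adjusted p alone. Between genotypes at PND 0, 0 of 29 passed either. Rpl4, a protein of the large ribosomal subunit, gave a change of 0.14 in WT and 0.17 in Scnn1b-Tg while Snord16a rose by 1.97 and 1.60. Rplp2 gave a change of -0.35 and 0.03 beside Snora52, Ipo7 of -0.33 and -0.29 beside Snora23, Rps3 of -0.09 and -0.15 beside Snord15b, and Hspa8 (the brightest of its 3 features) of -0.08 and -0.15 beside Snord14e. The snoRNA and its host had the same sign for 17 of 34 symbols in WT and 16 of 34 in Scnn1b-Tg. The hosts Snhg1, Snhg3, Snhg4, Snhg12, Gm36220 and 2410006H16Rik were not analysed here.

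**Figure D5:**
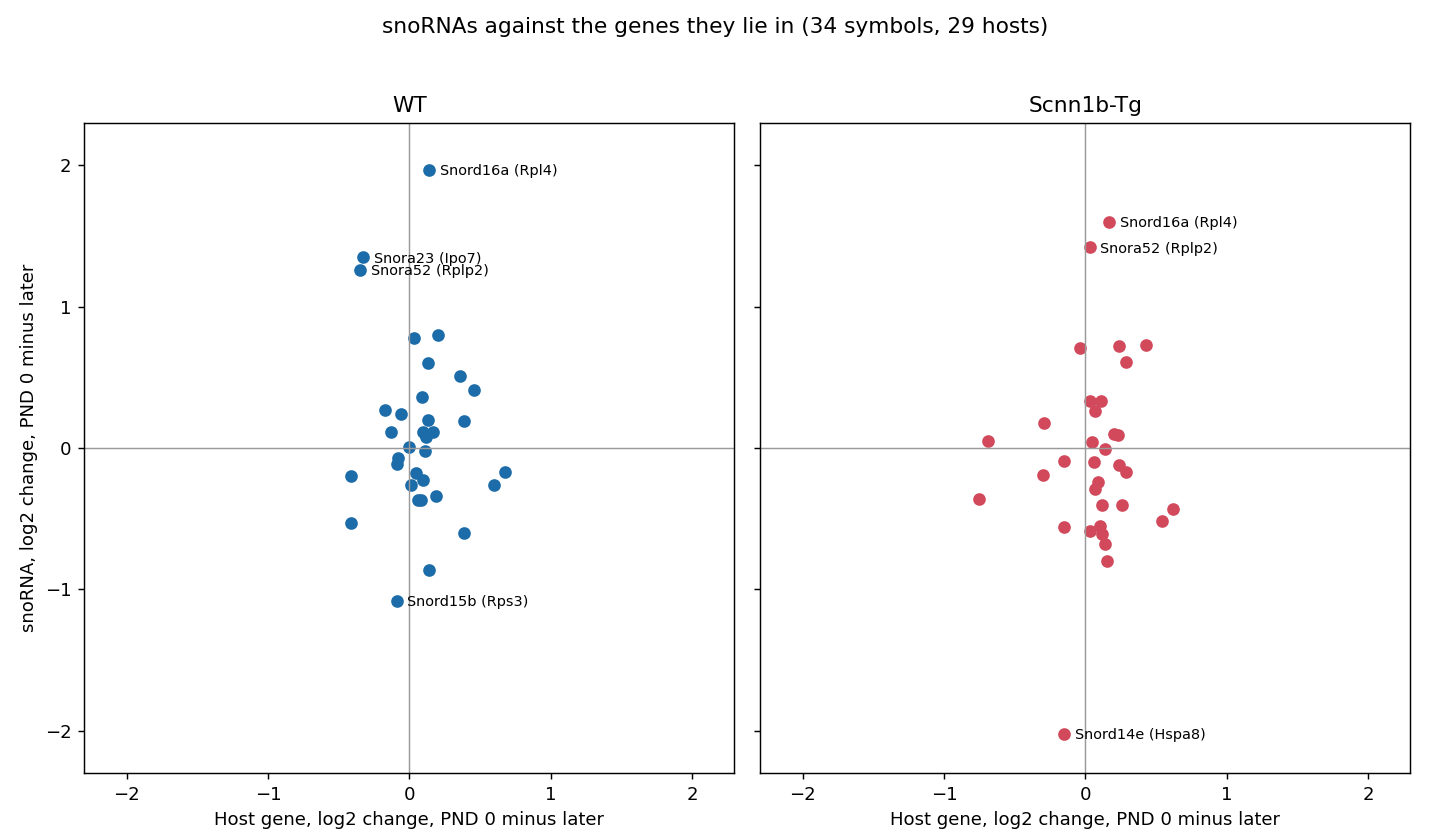
Each point is 1 of 34 snoRNA symbols, with the log2 change of its host gene (horizontal) and of the snoRNA (vertical) at PND 0 against later SPF ages, in WT (left) and Scnn1b-Tg (right), on equal scales. Host changes kept between -0.75 and 0.68 while snoRNA changes ran from -2.02 to 1.97. A host symbol with several features is shown by its brightest one.

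Genes of the snoRNA machinery had changes under 2-fold, with 1 exception. Of 26 genes for snoRNA-binding, assembly and processing proteins, 0 were higher and 1 was lower at PND 0 in each genotype. This was Tgs1, the enzyme that trimethylates the cap of U3, U8 and spliceosomal RNAs, at -1.03 ± 0.14 in both (adjusted p = 4.72e-07 and 3.94e-07). The median of the list was -0.01 in both, and -0.32 for Scnn1b-Tg against WT at PND 0, where 0 passed both limits. By adjusted p alone 7 were higher and 4 lower at PND 0 in WT, and 3 were higher and 8 lower in Scnn1b-Tg, among them Shq1, an assembly factor of H/ACA particles (-0.66 and -0.91). Among C/D core proteins, Nop58 (0.58 and 0.63) and Snu13 (0.37 and 0.36) passed the adjusted p in both genotypes, and fibrillarin (Fbl), at 0.24 and 0.18, did so in WT (adjusted p = 0.0424). Among H/ACA core proteins, Nhp2 (0.49, adjusted p = 0.00173) and Gar1 (0.43, adjusted p = 0.00703) passed it in WT and dyskerin (Dkc1, 0.34, adjusted p = 0.0382) in Scnn1b-Tg. Of 20 genes for ribosomal RNA synthesis and ribosome assembly, 0 passed both limits in either genotype, with 4 and 3 by adjusted p alone and medians of 0.02 and 0.04, and the median between genotypes at PND 0 was -0.27. The 72 ribosomal protein genes had medians of 0.10 and 0.14, with 0 past both limits.

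A list of 14 other short RNAs on the array (spliceosomal, Y, vault and the like) also held Scarna8, Scarna13, Scarna17 and Terc, which are related to snoRNAs. Of the 14, 3 were higher at PND 0 in each genotype and 0 lower. The medians were 0.59 in WT and 0.63 in Scnn1b-Tg, beside 0.04 and -0.10 for the snoRNA members. The 3 higher ones were Rnu3a, which is the U3 snoRNA under a symbol outside the rule (3.03 ± 0.47 and 2.47 ± 0.47), the Y RNA Rny3 (2.72 ± 0.58 and 3.19 ± 0.58) and the U2 spliceosomal RNA Rnu2-10 (1.44 ± 0.37 and 1.60 ± 0.37). Annotated microRNA features, 306 in all, had medians of 0.02 and -0.01, with 5 higher and 4 lower in WT and 7 higher and 1 lower in Scnn1b-Tg. Of 3 long nuclear RNAs, Meg3 was higher in both genotypes and Rian in Scnn1b-Tg. The difference between these lists was not tested.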

How the data were processed

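The authors deposited 1 table of log2 signals for 36 Affymetrix Mouse Gene 1.0 ST arrays, made with Partek (version 6.5 per the submitters' processing notes) by RMA, which corrects the background, normalizes by quantiles and summarises probes by median polish, with mm9 annotation. The table has 35556 features, and 6616 without annotation, whose identifiers lie below the first annotated one and which were presumed to be controls, were left out. Of the other 28940, 21218 carried 1 symbol, 1881 several and the rest none, by the platform annotation supplied for these arrays.

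Array groups came from the labels. All 36 arrays entered a limma fit (limma 3.58.1, R 4.3.3) with 1 mean for each of 10 groups and 17 contrasts, two-sided, and p-values were adjusted by Benjamini-Hochberg over the 28940 features. Replicates were pools of pups or single mice, and their small number limits the precision. The highest correlation between any pair of arrays was 0.9927, so that no array repeats another. In simulated data for the WT age contrast, both limits recovered 0, 29, 49 and 50 of 50 features changed 1.5, 2, 3 and 4-fold. There were 35 false calls among 28740 unchanged features. Adjusted p alone recovered 36, 45, 50 and 50, with 540 false calls, so that false calls outnumbered the true ones there. Far fewer features were changed in the simulation than passed in the data (31.5% by adjusted p alone in WT), so that these rates need not hold for the data.

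A host was the shortest RefSeq gene whose span holds the snoRNA (all 56 symbols matched), which is not bound to strand. Host start sequences are of GRCm38.p6, and their coordinates were not joined to the mm9 files. No snoRNA sequence was used here.

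The members, gene lists and alternatives were chosen with earlier results of these data known. The text names up to 10 called members of largest rise and of largest fall at PND 0, and up to 4 called members per sign in each other contrast. It also names 11 symbols that earlier results had named, of which Snord116 had no member feature. Several of these were listed by the study for whole lung. The study also lists Snora74a and Snora73b as lower in Scnn1b-Tg than in WT macrophages at PND 0. The calls given here for that comparison come from the same macrophage data and are not separate evidence. Alternatives were other normalizations, variance models, filters, later ages, and each array left out.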

Additional observations from a re-analysis of the deposited data

Results flagged for a closer look

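In groups of 4 arrays, a single array stood far from the others (Dixon's test, limit 0.829) in 7 of 114 cases checked, and chance gives about 1 in 20. Snord118 read 2.65 in WT replicate 1 at PND 10, where the other arrays read 2.79 to 2.81. Snord14e read 5.79 in Scnn1b-Tg replicate 1 at PND 3, against 7.10 to 7.19 in the other arrays. Snord15b read 5.84 in Scnn1b-Tg replicate 4 at PND 3, against 4.03 to 4.14, and 4.85 in WT replicate 1 at PND 42 in SPF housing, against 3.60 to 3.79. Snord22 read 4.19 in Scnn1b-Tg replicate 2 at PND 10, against 4.88 to 4.99. Snord35b read 5.26 in WT replicate 2 at PND 10, against 3.20 to 3.49. The interquartile range of all features was 0.255 in WT replicate 3 at PND 42 in SPF housing, the widest of its group. Of these, the array of Snord15b in WT at PND 42 bears on a call, since the fall of Snord15b in newborn WT was -0.99 without it.

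The change of Snord14e between PND 0 and the later ages differed between the genotypes by -1.95 on the log2 scale (limma, adjusted p = 0.04), and this call was lost in 14 of 30 fits that left out an array.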

How the results depend on the processing

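Over 29 results for single members and 623 alternatives, 485 kept their side of the limits, 138 dropped below them and 0 turned in direction. Snord16a and Snora23 at PND 0 in WT, Snora52 and Snord14e at PND 0 in Scnn1b-Tg, and Snora73b from PND 10 to PND 42 in Scnn1b-Tg passed under every alternative run. Of 350 alternatives for counts and medians, 281 were alike, and the others follow. The cause of each was not tested, and the share of all features under each alternative is not given beside the counts.

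Members higher at PND 0 in WT (7) numbered 4 after median centring, 4 against PND 3 alone and 4 where every newborn array had to lie above. Members lower in WT (1) numbered 0 with variance weights or the replicate block, 2 without dim features or with GF arrays added, 3 after median centring, without Scnn1b-Tg replicate 1 and WT replicate 2 at PND 0, or where every newborn array had to lie below, and 5 by adjusted p alone. In Scnn1b-Tg, members higher (3) numbered 1 against PND 3 alone and 8 by adjusted p alone, and members lower (1) numbered 2 after renewed quantile normalization, after median centring and against PND 3 alone, and 3 by adjusted p alone. Members whose age change differed between genotypes (1) numbered 0 with variance weights, without moderation, with the replicate block and against PND 3 alone, and 2 without dim features or without those newborn arrays. Members lower in Scnn1b-Tg at PND 0 (4) numbered 0 in the compared groups alone and with variance weights, and 2 after renewed quantile normalization, without moderation and without those newborn arrays. At later ages, members that differed between genotypes (2) numbered 1 after renewed quantile normalization or without moderation, and 4 without dim features. Over the age steps, 11 members in WT (6) and 11 in Scnn1b-Tg (5) passed by adjusted p alone. In Scnn1b-Tg the steps gave 2 in the compared groups alone and without those newborn arrays, 3 with variance weights and 8 after renewed quantile normalization. After median centring the median change at PND 0 was -0.19 in WT and -0.35 in Scnn1b-Tg. The call rule of non-overlapping arrays, the 2 newborn arrays left out and the merging of identical features were chosen after the data were seen.

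With each array left out in turn, members at PND 0 ranged from 7 to 8 higher and 0 to 3 lower in WT, and from 2 to 4 higher and 1 to 1 lower in Scnn1b-Tg. The interaction gave 0 to 3, the genotype comparison 1 to 5 at PND 0 and 1 to 4 later, the steps 5 to 9 in WT and 2 to 6 in Scnn1b-Tg, and housing 0 to 0. The shares of all features in these fits are not given here, so that the counts have no background beside them. Median changes ran from -0.03 to 0.08 in WT and from -0.17 to 0.00 in Scnn1b-Tg, and that between genotypes at PND 0 (-0.26 with all arrays) from -0.24 to -0.08 over its 6 arrays.

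Replicate numbers are shared between groups. Deviations from the group mean were correlated between WT and Scnn1b-Tg arrays of equal number, age and housing. The correlations were -0.126 to 0.244 over 18 pairs, 1 of them over 0.1. With so few arrays in a group, these values cannot show whether arrays of equal number were paired. With the replicate number as a block, Snord15b in WT (-0.98), the genotype difference of Snord14e (-1.95, adjusted p = 0.0584), Snora23 at PND 0 (adjusted p = 0.0586), Snord49a at PND 3 (adjusted p = 0.0588) and Snord16a from PND 10 to PND 42 (adjusted p = 0.061) no longer passed both limits.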
